A study of Rattus norvegicus with 12 samples.

Results

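The genes described here are 10 components of transforming growth factor beta (TGF-beta) signalling: the ligands Tgfb1, Tgfb2 and Tgfb3, the receptors Tgfbr1, Tgfbr2 and Tgfbr3, the signal carriers Smad2, Smad3 and Smad4, and the inhibitor Smad7. They were taken by gene name from the annotation of a rat expression array, which held 12 probes for them among 30367 gene probes of 26456 gene names. All 12 probes are accounted for below. The arrays measured total RNA of the lumbar mammary gland of female Wistar rats, on 1 array per rat. The rats were offspring of dams that received a low protein diet (LP, 8.8% protein) or a normal protein diet (NP, 17% protein) while pregnant. After birth all dams and offspring received the same standard chow. Glands were taken on day 21 (d21) or day 28 (d28) of life, early and late in pubertal duct growth, with 3 rats in each of the 4 groups. NP rats were named 4a, 5a and 6a at d21 and 4f, 5f and 6f at d28, and LP rats 4a, 6a and 7c at d21 and 4f, 6f and 7f at d28. The labels do not tie a number to a litter, and the spread between rats of a group is the error used throughout.

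TGF-beta ligands are secreted in a latent form, bound to their own propeptide and to latent TGF-beta binding proteins in the matrix, and have to be released before they can act. Active ligand binds the type II receptor Tgfbr2, which phosphorylates the type I receptor Tgfbr1, and this kinase in turn phosphorylates Smad2 and Smad3. These enter the nucleus together with the common partner Smad4, where Smad7 is among the genes they switch on and acts back on the receptors as a brake. The coreceptor Tgfbr3, or betaglycan, presents ligand to Tgfbr2 and matters most for TGF-beta2. In the mammary gland TGF-beta is known as a restraint on epithelial proliferation and on duct branching, and it also drives the deposition of stromal matrix. It acts on lymphocytes too, which both make and answer to TGF-beta1.

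The Tgfb1 probe and both Tgfbr2 probes are shown because the diet comparison turns on them. Each measures a defined stretch of the coding message. The Tgfb1 probe reads a stretch that encodes part of the mature ligand and was spotted 10 times on every array. The first Tgfbr2 probe reads part of the kinase domain. The second reads the end of the coding sequence, printed only as far as the stop codon, which is in capitals (the first 41 of its 60 bases). On rn4, the build of the array annotation, they lie at chr1:80910123-80910182 on the plus strand, at chr8:120608686-120608745 on the minus strand and at chr8:120593700-120593759 on the minus strand, in that order.
Tgfb1 A_42_P522899: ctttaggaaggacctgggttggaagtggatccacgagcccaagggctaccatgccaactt
Tgfbr2 A_64_P129314: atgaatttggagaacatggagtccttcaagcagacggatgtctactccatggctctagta
Tgfbr2 A_64_P129315: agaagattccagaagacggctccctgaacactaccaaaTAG

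The other probes lie, on the same build, at chr13:102718952-102719009 and chr13:102801650-102801709 on the minus strand for Tgfb2, at chr6:110173856-110173915 on the minus strand for Tgfb3, at chr5:64033998-64034057 on the plus strand for Tgfbr1, and at chr14:3240135-3240194 on the plus strand for Tgfbr3. The Smad probes lie at chr18:73236202-73236261 on the plus strand for Smad2, at chr8:67804038-67804097 on the minus strand for Smad3, at chr18:70438644-70438703 on the minus strand for Smad4 and at chr18:72323004-72323062 on the plus strand for Smad7.

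Levels are given as the log2 of the scanner's processed signal minus the 75th percentile of the same array, so that 0 is a signal equal to that percentile and each unit is a doubling. A probe's level cannot be set against that of another probe, since probes bind with different strength. Of the 12 probes, 11 were well above background on all 12 arrays. The probe of Smad3, a receptor-activated Smad and the closest relative of Smad2, was well above background on 0 of 12 arrays, with spot signals of 3.18 to 18.5 units. It was not tested and no fold is given for it. LP was compared with NP, and d28 with d21, with limma in 1 fit over the 4 groups. The p values were adjusted by the Benjamini-Hochberg method over 23209 probes, those that 3 or more arrays showed well above background. All d21 arrays were on 1 slide and all d28 arrays on the other, so that a difference between days and a difference between slides cannot be told apart.

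One array stood apart, that of LP rat 6a at d21, whose correlation with the 11 others had a median of 0.96, while the other medians ran from 0.974 to 0.989. The marker lists of mammary tissue were expressed on the arrays, with 7 of 7 luminal, 6 of 6 basal, 5 of 5 adipocyte and 6 of 6 fibroblast genes tested. Markers of other tissue were also measured, with 8 of 8 B and T lymphocyte genes and 6 of 6 skeletal muscle genes tested. The study's methods state that visible lymph nodes were taken out of the glands. The summed signal of the lymphocyte markers, in multiples of the 75th percentile, was 19.8 to 22.6 in NP and 0.256 to 18.9 in LP at d21, and 21.3 to 27.5 in NP and 10.9 to 19.8 in LP at d28. For the skeletal muscle markers the sum was 6.88 to 61.7 in NP and 0.747 to 90.9 in LP at d21. At d28 it was 2.83 to 8.76 in NP and 0.743 to 76.4 in LP. The highest muscle sum of all arrays was that of LP rat 6a at d21 (90.9), which also had the highest basal sum (14.4). The part of muscle and basal cells in the values below was not tested. In a whole gland, fewer cells of a type and less RNA per cell cannot be told apart.

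Tgfb1 was lower in the LP than in the NP gland on both days, without overlap of the rats, but the difference did not pass the test on either day. At d21 its level was -1.50, -1.55 and -1.66 in NP rats 4a, 5a and 6a. In LP rats 4a, 6a and 7c it was -1.70, -2.66 and -1.72. LP rat 6a was by far the lowest of the 12, and the other LP rats lay just below the lowest NP rat. The mean was -1.57 ± 0.08 (SD, n = 3) in NP and -2.02 ± 0.55 (SD, n = 3) in LP. The difference of -0.46 (SE 0.24), or 1.37-fold lower, had a 95% interval of -0.98 to 0.07 and an adjusted p of 0.861 in limma.

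At d28 the Tgfb1 level was -1.47, -1.34 and -1.60 in NP rats 4f, 5f and 6f. In LP rats 4f, 6f and 7f it was -1.76, -1.72 and -2.11. Here too every LP rat lay below every NP rat, with 7f the lowest. The mean was -1.47 ± 0.13 (SD, n = 3) in NP and -1.86 ± 0.22 (SD, n = 3) in LP, a difference of -0.39 (SE 0.24), or 1.31-fold lower, with a 95% interval of -0.92 to 0.13 and an adjusted p of 0.582 in limma. In order of the mean, Tgfb1 was highest in NP at d28, followed by NP at d21, LP at d28 and LP at d21. The NP rats of both days overlapped, and so did the LP rats of both days, while every NP rat lay above every LP rat across the days too. The closest were NP rat 6a (-1.66) and LP rat 4a (-1.70), both of d21. Their spots overlapped, with ranges of -1.74 to -1.58 and -1.79 to -1.60. The share of all tested probes with such a separation across the days was not counted. The mean of both days' differences, a contrast added after the values were seen, was -0.42 (SE 0.17), with an unadjusted p of 0.0289 and an adjusted p of 0.418 in limma. It was -0.21 with slide row as a covariate and -0.26 without LP rat 6a at d21. The same contrast gave -0.42 (SE 0.15, unadjusted p = 0.0169) for the Tgfbr2 probe A_64_P129314, which was -0.25 with normexp background, and these were the 2 of 11 component probes with an unadjusted p under 0.05. Of all tested probes 11.9% had an unadjusted p under 0.05 in this contrast and 0% an adjusted one.

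**Figure D1:**
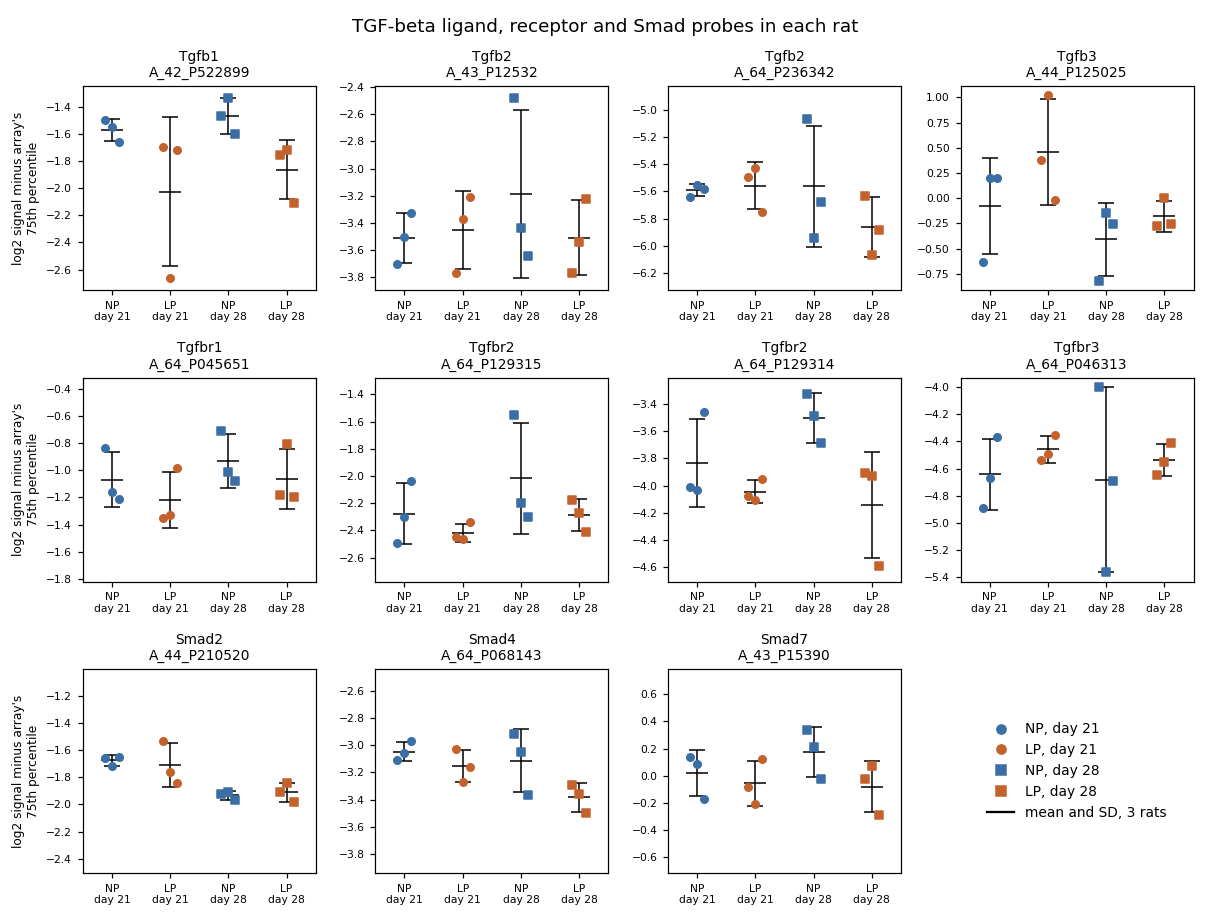
Level of each tested probe in every rat, as log2 signal minus the 75th percentile of the array (vertical axis, its own range in each panel but at least 1.5 log2 units), with NP in blue and LP in orange, d21 as circles and d28 as squares, and the mean and SD of 3 rats in black. Tgfb1 has every LP rat below every NP rat on both days, and at d28 the Tgfbr2 probe A_64_P129314 does too.

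A lack of overlap of this kind was not rare among all probes. Every LP rat lay below every NP rat for 5.94% of tested probes at d21 and for 12.4% at d28, and for 1.91% on both days. Among the 11 tested probes of TGF-beta components this held for 1 at d21 (Tgfb1) and for 2 at d28 (Tgfb1 and the kinase-domain probe of Tgfbr2), and on both days for Tgfb1. In 0 of the 11 did every LP rat lie above every NP rat on either day, which held for 5.54% of all tested probes at d21 and 4.41% at d28.

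The standard deviation over the repeated spots of the Tgfb1 probe, a technical spread within an array, was 0.044 to 0.083 on the log2 scale. The spread between rats, up to 0.55 in LP at d21, is the one that the diet difference was tested against. On the array of LP rat 6a at d21 the spots lay between -2.77 and -2.59, while no spot of the other LP rats of that day was below -1.79. At d28 the spots of LP rat 7f, between -2.18 and -2.03, lay below all spots of the other arrays of that day. Without LP rat 6a the d21 difference was -0.14, and without LP rat 7f the d28 difference was -0.27.

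**Figure D2:**
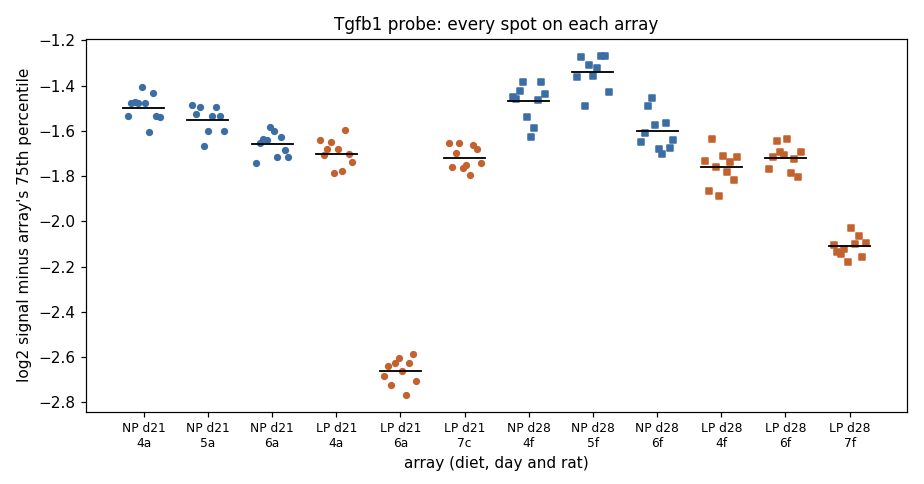
Every spot of the Tgfb1 probe that was not marked as an outlier, on each of the 12 arrays (horizontal axis, diet, day and rat), as log2 signal minus the 75th percentile of the array, with the level of the array as a black line. Spots of an array lie close together, and those of LP rat 6a at d21 (-2.77 to -2.59) lie apart from all others.

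Position on the slide moved with diet. On each slide all NP arrays and 1 LP array (4a or 4f) were in the first row, and the other LP arrays in the second. With slide row as a covariate the Tgfb1 difference was -0.24 at d21 and -0.18 at d28, and within the first row it was -0.13 and -0.29 (1 LP against 3 NP arrays). The part of slide row in the result was not tested further.

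Lymphocyte transcripts moved with Tgfb1 from rat to rat. All 8 lymphocyte markers were lower in LP on both days, with a median difference of -2.45 at d21 and -0.61 at d28, although none passed an adjusted p of 0.05 or an unadjusted p of 0.05 in limma. At d21 the summed marker signal was 18.9 and 15.6 in LP rats 4a and 7c, against 19.8 to 22.6 in NP, and 0.256 in LP rat 6a. The d21 difference of the markers thus rests largely on LP rat 6a. The lowest summed marker signal of each day was on the array with the lowest Tgfb1, 0.256 in LP rat 6a at d21 and 10.9 in LP rat 7f at d28. Over the 12 arrays Tgfb1 and the log2 of that sum had a Pearson's r of 0.92 (exact permutation p = 0.01, one-sided) and a Spearman's rho of 0.909 (exact permutation p = 0.0108, one-sided), with arrays permuted only within their group of diet and day. For deviations from the group means r was 0.948. Without these 2 arrays, the farthest from the median, r was 0.857 over 10 arrays (exact permutation p = 0.0903, one-sided) and rho 0.842 (exact permutation p = 0.0694, one-sided). For deviations from the group means r was then 0.641, so that within groups the relation was weaker without them. Within a day r was 0.989 at d21 (exact permutation p = 0.0278, n = 6) and 0.966 at d28 (exact permutation p = 0.111, n = 6), where 0.0278 is the smallest p that 6 arrays allow. The relation was chosen because it was seen in these values, so that the p values are no independent evidence for it. The part of lymphocytes in the Tgfb1 difference was not tested.

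**Figure D3:**
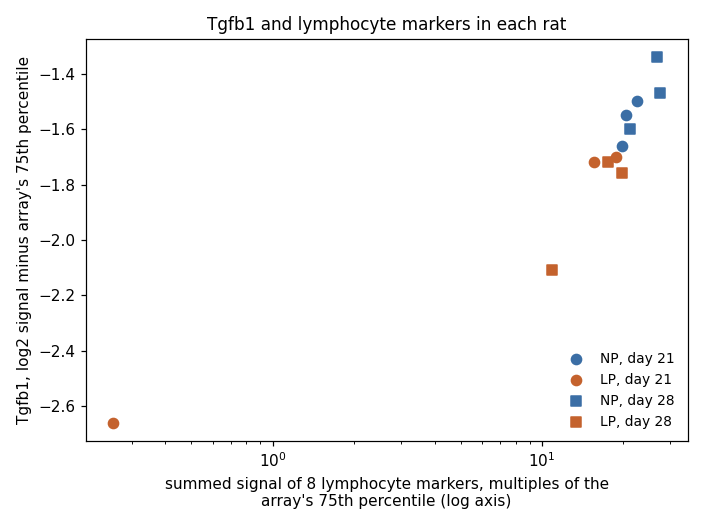
Tgfb1 level of each rat (vertical axis, log2 signal minus the 75th percentile of the array) against the summed signal of 8 B and T lymphocyte markers on the same array (horizontal axis, multiples of the 75th percentile, log axis), with NP in blue, LP in orange, d21 as circles and d28 as squares. The arrays with the lowest Tgfb1, LP rat 6a at d21 and LP rat 7f at d28, also have the lowest sums, 0.256 and 10.9.

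The genes whose pattern over the 12 arrays was most like that of Tgfb1 were sought among 10462 named genes with a probe well above background on every array. For a gene with several such probes the one with the highest r was taken, which favours high values. The 5 with the highest Pearson r were Rasgrp2 (0.984), Rgs14 (0.983), Fxyd5 (0.982), Arhgdib (0.979) and Neurl3 (0.979). Rasgrp2 and Arhgdib encode regulators of small GTPases, and Rgs14 a regulator of G protein signalling. Without LP rat 6a at d21 their r was between 0.927 and 0.962. Rasgrp2, the first of them, was at -2.17 in that rat and between -0.23 and 0.15 in the other 5 rats of the day. Among the lymphocyte markers in that search r with Tgfb1 ran from 0.955 for Cd79b (rank 71 of 10462) to 0.904 for Cd3g. Among the TGF-beta components themselves r with Tgfb1 ran from 0.722 for Smad7 to -0.667 for Tgfb3. These coefficients describe 12 arrays that share the diet groups, slides and tissue composition.

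The other ligands did not follow Tgfb1. Tgfb3, a ligand that is made in the mammary epithelium and rises strongly when the gland involutes, had the largest positive diet difference of the set. At d21 its level was -0.63, 0.20 and 0.20 in the NP rats and 0.38, 1.02 and -0.02 in the LP rats. The groups overlapped, with NP rat 4a low and LP rat 6a high. The difference of 0.53 (SE 0.31) had a 95% interval of -0.15 to 1.22 and an adjusted p of 0.861 in limma, and was 0.25 without LP rat 6a and 0.26 without NP rat 4a. At d28 the level was -0.82, -0.15 and -0.26 in NP and -0.28, 0.00 and -0.26 in LP, a difference of 0.23 (SE 0.31). It was 0.03 without NP rat 4f and 0.43 with normexp background. The luminal epithelial markers were higher in LP in 7 of 7 genes on both days, with median differences of 0.77 and 0.53 and a summed signal highest in LP rat 6a at d21 (57.5, against 15.5 to 35.3 in the other rats of the day), and their part in the Tgfb3 values was not tested.

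Tgfb2, the ligand that depends most on the coreceptor Tgfbr3, was measured by 2 probes. The brighter, A_43_P12532, ranged over the 12 rats from -3.77 to -2.48, and the dimmer, A_64_P236342, from -6.07 to -5.07. NP rat 4f at d28 was the highest on both. LP and NP rats overlapped on both days with either probe. The differences were 0.06 (SE 0.29) and 0.03 (SE 0.21) at d21 and -0.33 (SE 0.29) and -0.30 (SE 0.21) at d28 on the log2 scale. For the brighter probe the d28 difference turned to 0.03 without NP rat 4f.

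Tgfbr2, the type II receptor that binds ligand first, had the lowest unadjusted p of the set in the diet comparison, on its kinase-domain probe A_64_P129314 at d28. The level was -3.33, -3.49 and -3.69 in NP rats 4f, 5f and 6f, and -3.91, -3.93 and -4.59 in LP rats 4f, 6f and 7f. Every LP rat lay below every NP rat, and 7f was the lowest of all. Both Tgfbr2 probes had 1 spot per array, so that no spread between spots is known for them. Before scaling, the spot signals of A_64_P129314 at d28 were 129 to 206 units in NP and 85.3 to 136 in LP. The mean level was -3.50 ± 0.18 (SD, n = 3) in NP and -4.14 ± 0.39 (SD, n = 3) in LP. The difference of -0.64 (SE 0.21), or 1.56-fold lower, had a 95% interval of -1.11 to -0.17, an unadjusted p of 0.0122 and an adjusted p of 0.581 in limma. It was -0.42 without LP rat 7f, also -0.42 with an alternative (normexp) background correction, and -0.54 with slide row as a covariate (unadjusted p = 0.0717).

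At d21 the same probe read -4.01, -4.03 and -3.46 in NP and -4.08, -4.11 and -3.95 in LP. The groups overlapped, and the difference was -0.21 (SE 0.21). The second Tgfbr2 probe, at the end of the coding sequence, gave a smaller difference at d28. It read -1.55, -2.20 and -2.30 in NP and -2.18, -2.27 and -2.41 in LP, with overlap. Its difference of -0.27 (SE 0.19), with a 95% interval of -0.70 to 0.15 and an adjusted p of 0.597 in limma, rested on NP rat 4f and was -0.04 without that rat. At d21 it was -0.14 (SE 0.19). Without NP rat 6a the d21 differences were -0.02 for both Tgfbr2 probes. At d28 the lack of overlap was seen with the kinase-domain probe and not with the other.

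The remaining receptors overlapped between the diets. Tgfbr1, the type I receptor kinase, ranged from -1.35 to -0.71 over the 12 rats, with LP and NP overlapping on both days. Its differences were -0.15 (SE 0.17) at d21 and -0.14 (SE 0.17) at d28, with 95% intervals of -0.52 to 0.22 and -0.51 to 0.24. Tgfbr3, the coreceptor betaglycan, ranged from -5.36 to -4.00, and both of these extremes were NP rats of d28 (5f and 4f). Its differences were 0.18 (SE 0.28) at d21 and 0.14 (SE 0.28) at d28.

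Of the Smads, Smad2, which carries the signal from the receptors, differed least between the diets. At d21 it was -1.66, -1.72 and -1.65 in NP and -1.53, -1.76 and -1.84 in LP, and at d28 it was -1.92, -1.91 and -1.97 in NP and -1.91, -1.84 and -1.98 in LP. The difference was -0.04 (SE 0.10) at d21 and 0.02 (SE 0.10) at d28, with 95% intervals of -0.25 to 0.18 and -0.19 to 0.24. These are the narrowest intervals of the set and leave room for changes of less than 1.2-fold in either direction.

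Smad4, the partner that the receptor-activated Smads share, was -2.92, -3.05 and -3.37 in NP and -3.29, -3.36 and -3.50 in LP at d28. NP rat 6f lay among the LP rats. The difference of -0.27 (SE 0.13) had a 95% interval of -0.55 to 0.01 and an adjusted p of 0.581 in limma, and without NP rat 6f it was -0.40. With normexp background it was -0.13. At d21 it was -0.11 (SE 0.13). Smad7, the inhibitor that the pathway itself induces, was 0.34, 0.21 and -0.02 in NP and -0.02, 0.07 and -0.29 in LP at d28, a difference of -0.25 (SE 0.15) with a 95% interval of -0.58 to 0.08. At d21 its difference was -0.07 (SE 0.15).

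Over the set, 7 of 11 tested probes were lower in LP at d21, with a median difference of -0.07 against 0.01 for all tested probes, and 8 of 11 at d28, with a median of -0.27 against -0.05 for all. None had an adjusted p under 0.05 on either day, as for all tested probes (0%). With an unadjusted p under 0.05 there were 0 of 11 at d21, where 4.36% of all tested probes had one, and 1 of 11 at d28, where 8.07% had one. At d28 the median of the 11 was -0.04 without NP rat 4f and -0.21 without LP rat 7f, and it was -0.14 with normexp background. Endothelial markers were lower in LP at d28 in 5 of 6 genes, with a median of -0.26. Their summed signal overlapped between the diets. It was 24.6, 15.8 and 16.8 in NP rats 4f, 5f and 6f, and 18.2, 15.6 and 13.2 in LP rats 4f, 6f and 7f. Their part in the shift was not tested.

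**Figure D4:**
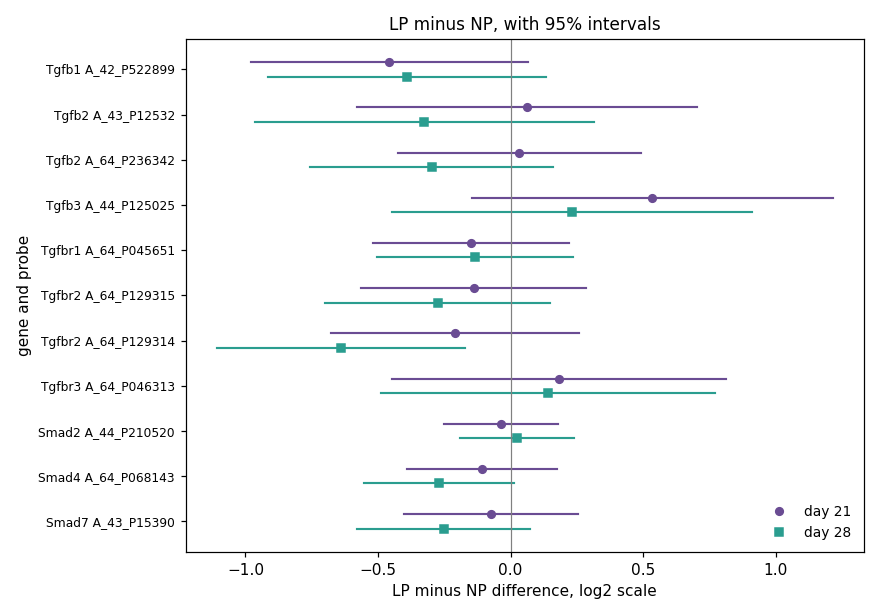
LP minus NP difference of each tested probe on the log2 scale (horizontal axis) at d21 (purple circles) and d28 (green squares), with 95% intervals from the fit over all tested probes. The intervals include 0 except that of the Tgfbr2 probe A_64_P129314 at d28 (-1.11 to -0.17), which is not corrected for the number of probes tested.

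Whether the diet difference changed between the days was tested as an interaction. No component had an adjusted or an unadjusted p under 0.05 in limma, and of all tested probes 0% had an adjusted and 2.26% an unadjusted one. The change was -0.43 (SE 0.30) for the kinase-domain probe of Tgfbr2 (unadjusted p = 0.176) and 0.07 (SE 0.33) for Tgfb1. The lack of overlap of Tgfbr2 at d28 and not at d21 is thus not shown to be a difference between the days.

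Between d21 and d28 no component passed an adjusted p of 0.05 in limma within either diet. Of all tested probes 0.25% passed in NP and 0% in LP, and 12.8% and 10.1% had an unadjusted p under 0.05. Smad2 was lower at d28 in both diets. In NP every rat of d28 lay below every rat of d21, and the difference of -0.26 (SE 0.10), or 1.2-fold lower, had a 95% interval of -0.47 to -0.04, an unadjusted p of 0.0227 and an adjusted p of 0.305. In LP the difference was -0.20 (SE 0.10), again without a d28 rat above the lowest of d21, although these were both at -1.84 as rounded (unadjusted p = 0.0648). Over all tested probes every d28 rat lay below every d21 rat for 7.01% in NP and 11.5% in LP.

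Smad4 also had every LP rat of d28 below every LP rat of d21, with a difference of -0.23 (SE 0.13) in LP and -0.07 (SE 0.13) in NP. Tgfb3 differed between the days by -0.64 (SE 0.31) in LP and by -0.33 (SE 0.31) in NP on the log2 scale, with overlap in both. Tgfb1 differed between the days by 0.09 (SE 0.24) in NP and 0.16 (SE 0.24) in LP, and the latter was -0.16 without LP rat 6a at d21. The kinase-domain probe of Tgfbr2 differed by 0.33 (SE 0.21) in NP and -0.10 (SE 0.21) in LP. The day comparisons in both diets used the same rats as the diet comparisons.

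**Figure D5:**
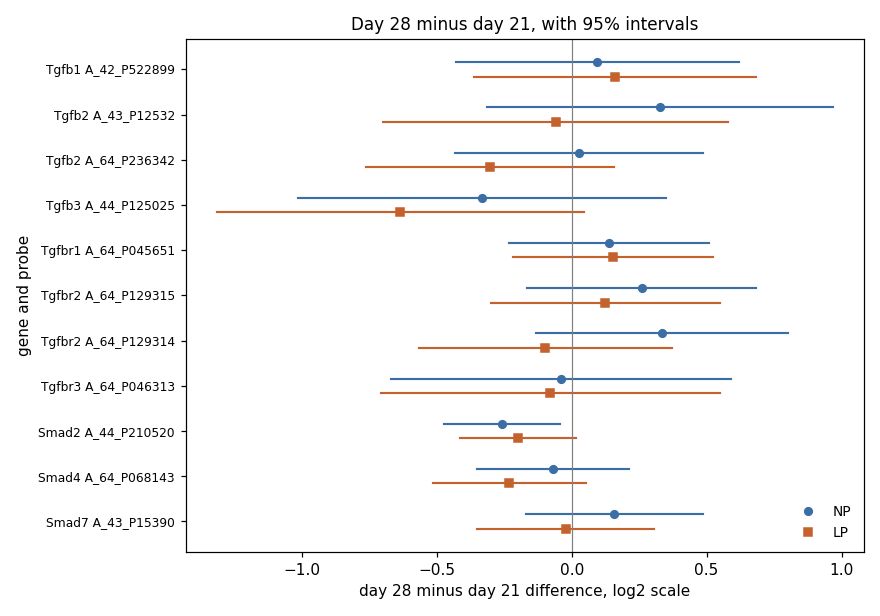
Day 28 minus day 21 difference of each tested probe on the log2 scale (horizontal axis) in NP (blue circles) and LP (orange squares), with 95% intervals from the fit over all tested probes. Smad2 in NP (-0.47 to -0.04) has the interval that does not include 0.

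The wider pathway was read from lists of latency and activation genes, other receptors, other ligands, extracellular antagonists, intracellular brakes, other Smads and adaptors, and transcripts known to rise with TGF-beta, with 1 probe per gene and 78 tested genes in all. None had an adjusted p under 0.05 in limma in any of the comparisons. With an unadjusted p under 0.05 there were 3 of 78 in the diet comparison at d21 (3.85%), 4 at d28 (5.13%), 9 between the days in NP (11.5%) and 7 in LP (8.97%), each share below that of all tested probes.

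In the diet comparison the transcripts known to rise with TGF-beta were 17 higher and 5 lower in LP at d21, with a median difference of 0.12, and 12 higher and 10 lower at d28, with a median of 0.19. With an unadjusted p under 0.05 there were 0 of 22 at d21 and 1 of 22 at d28 (all tested probes, 4.36% and 8.07%). That one was Tgfbi, a matrix protein named for its induction by TGF-beta, at 2.94, 2.66 and 2.50 in NP and 1.94, 2.15 and 2.24 in LP at d28. Every LP rat lay below every NP rat, as for 12.4% of all tested probes at d28. The difference was -0.59 (SE 0.16), with an unadjusted p of 0.00448 and an adjusted p of 0.581 in limma. Fibroblast markers were higher in LP in 5 of 6 genes at d21 and 4 of 6 at d28, with medians of 0.06 and 0.53. Basal markers were higher in 5 of 6 and 4 of 6 genes, with medians of 0.62 and 0.71. The part of these cells in the transcripts known to rise with TGF-beta was not tested.

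Among the brakes, 1 of 9 was lower in LP at d28 at an unadjusted p under 0.05 and 0 higher (all tested probes in either direction, 8.07%). It was Bambi, a pseudoreceptor that lacks a kinase and blocks signalling, at -1.01, -1.50 and -1.41 in NP and -1.91, -1.63 and -1.77 in LP. The difference was -0.46 (SE 0.16) without overlap, which 12.4% of all tested probes showed in this direction at d28. Among the other Smads and adaptors it was 1 of 9, Smad5, a carrier of bone morphogenetic protein signals, with a difference of -0.24 (SE 0.10). Among the other receptors it was 1 of 10 in the higher direction on each day (all tested probes in either direction, 4.36% at d21 and 8.07% at d28). Bmpr1b, a type I receptor for bone morphogenetic proteins, was at -4.89, -3.63 and -4.39 in NP and -3.36, -2.28 and -3.97 in LP at d21, a difference of 1.10 (SE 0.47) with overlap. Bmpr1a, its relative, differed by 0.45 (SE 0.17) at d28. Of the other ligands, 1 of 10 was higher and 1 lower at d21, Bmp7 by 0.83 (SE 0.35) and Amh by -0.50 (SE 0.21). LP rat 6a was the highest of d21 for Bmpr1b and Bmp7, as for the luminal markers, whose part was not tested. Without that rat Bmpr1b differed by 0.64 and Bmp7 by 0.56, and without NP rat 4f Bmpr1a differed by 0.25 at d28. Amh differed by -0.07 with normexp background. The latency genes (13 tested) and the extracellular antagonists (8 tested) had 0 on both days.

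Between the days the latency genes gave the lowest p values of the lists. Ltbp4, a latent TGF-beta binding protein, differed by -0.73 (SE 0.19) in NP and -0.77 (SE 0.19) in LP, and with Ltbp3 (-0.57, SE 0.16, in NP) and Ltbp2 (-0.99, SE 0.24, in LP) this made 2 of 13 latency genes lower at d28 in each diet at an unadjusted p under 0.05 (all tested probes in either direction, 12.8% in NP and 10.1% in LP). Eng, the endothelial coreceptor endoglin, differed by -0.58 (SE 0.16) in NP and -0.52 (SE 0.16) in LP. Endothelial markers were lower at d28 in 4 of 6 genes in NP (2 with an unadjusted p under 0.05) and in 6 of 6 in LP (3 with one), with Tie1 at -0.48 and -0.78, and their part in the Eng values was not tested. In NP, Fstl3, an activin antagonist, differed by -0.90 (SE 0.26), Bmpr1a by -0.42 (SE 0.17) and Acvrl1 by -0.30 (SE 0.13), while Junb, Tgif1 and Ep300 differed by 0.55 (SE 0.20), 0.33 (SE 0.14) and 0.30 (SE 0.11). In LP, Inhba, the subunit of activin A, differed by -0.67 (SE 0.20), Bambi by -0.43 (SE 0.16), Tagln by -0.47 (SE 0.20) and Zeb1 by -0.33 (SE 0.13). The adjusted p values of these genes in limma were between 0.167 and 0.466.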

How the data were processed

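For each of 12 arrays the authors deposited the intensity of every spot as read by Agilent Feature Extraction 10.7.3.1, after background subtraction and correction of trends within the array and without scaling between arrays. The authors also deposited processed signal that differs from the scanner output only by 1 factor per array (largest relative deviation 6.56e-05) and was used as an alternative. The authors' calls, made with Rosetta Resolver, were not used here. Control spots and spots marked as outliers (259 to 766 per array) were left out, and 0 gene spots were saturated. Log2 values were taken relative to the 75th percentile of each array, whose signal was 1451 to 2370, and spots of a probe were averaged. Between 74.8% and 79.6% of spots were well above background, and the number of arrays limits the precision. Tests used lmFit and eBayes of limma 3.58.1 (R 4.3.3) on probes that rose well above background on 3 or more arrays (8 residual and 1.95 prior degrees of freedom), and intervals are 95% intervals at their sum. Values were tabulated with the data.table package (version 1.17.8), pandas 2.3.3 and scipy 1.17.1 in Python 3.11.15. The limma fit, but not the steps before it, was tested on simulated independent values for the diet comparison at d28. Of 200 probes changed by 1 log2 unit, 111 had an adjusted p under 0.05, as did 5 unchanged probes. Of 200 changed by 2 log2 units it was 173, with 13 unchanged probes. Many changes of 1 log2 unit would thus be missed.

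Every probe of the 10 genes is described. For genes of the lists the brightest tested probe was taken. Genes with an unadjusted p under 0.05 are named, up to 4 per list with the lowest p. The 5 genes most like Tgfb1 were found among symbols known to RefSeq, each gene by its probe with the highest r. The genes, the lists and the rules were chosen with earlier results of these data known. Probe sequences and rn4 positions are those of the array files, and exon or untranslated region annotation of that build was not used here.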

Additional observations from a re-analysis of the deposited data

How the results depend on the processing

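The 10 alternatives that keep all arrays and the removal of each of the 12 arrays in turn gave 0 component probes with an adjusted p under 0.05 in limma in any comparison (lowest adjusted p 0.218). Of 1045 values under an alternative, 1011 kept their direction and 34 did not, and the cause was not tested. Some alternatives changed only which probes or arrays entered the fit or how the spread was estimated. These leave a difference as it is, so that the count of kept directions is no measure of robustness. Differences are on the log2 scale. A block for the replicate number made the d21 difference -0.13 for Tgfb2 A_43_P12532, -0.054 for Tgfbr3 and 0.008 for Smad2, and at d28 -0.094 for Tgfbr3. That block raised the Tgfb3 difference at d21 to 0.81 (unadjusted p = 0.00283 in limma) and at d28 to 0.51 (unadjusted p = 0.0265 in limma). The labels do not say whether rats with the same number belong together. Between such rats, correlations of deviations from the group mean were 0.089 to 0.132 across diets and -0.055 to 0.379 across days. These correlations cannot settle whether the numbers pair the rats. With slide row as a covariate the d21 difference was -0.23 for Tgfb2 A_43_P12532 and 0.055 for Smad2. With normexp background, which moved the median of all probes between the days in NP to 0.10, Smad2 differed by -0.059 between diets at d28, Tgfbr3 by 0.083 between days in NP, and in LP Tgfb2 A_64_P236342 by 0.034, Tgfbr2 A_64_P129314 by 0.093, Tgfbr3 by 0.025 and Smad7 by 0.083. With quantile normalization Tgfb2 A_64_P236342 differed by -0.00041 between days in NP.

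Leaving out 1 array in turn changed the direction at least once for 16 of the 71 differences compared. At d21 between diets the ranges were -0.059 to 0.22 for Tgfb2 A_43_P12532, -0.032 to 0.13 for Tgfb2 A_64_P236342, -0.13 to 0.028 for Smad2 and -0.17 to 0.003 for Smad7. At d28 they were -0.55 to 0.028 for Tgfb2 A_43_P12532, -0.20 to 0.49 for Tgfbr3 and -0.011 to 0.058 for Smad2. Between days in NP they were -0.026 to 0.55 and -0.22 to 0.21 for the Tgfb2 probes, -0.38 to 0.30 for Tgfbr3 and -0.17 to 0.06 for Smad4. Between days in LP they were -0.16 to 0.32 for Tgfb1, -0.22 to 0.069 for Tgfb2 A_43_P12532, -0.21 to 0.13 for Tgfbr2 A_64_P129314 and -0.099 to 0.083 for Smad7. The change of the Tgfb1 diet difference between the days ranged from -0.25 to 0.23.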
